A study of Mus musculus with 6 samples.

Results

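Toll-like receptors are the pattern recognition receptors of myeloid cells that read microbial lipids, proteins and nucleic acids. Expression of 10 of the mouse Toll-like receptor genes was followed in cultured macrophages. They were 5 receptors of the cell surface (Tlr1, Tlr2, Tlr4, Tlr5 and Tlr6) and 5 of the endosome (Tlr3, Tlr7, Tlr8, Tlr9 and Tlr13). The rule names the genes and their place in the cell and uses no expression value, though it was set with earlier results of these data known, and each of the 10 symbols matched 1 of the 55421 genes in the deposited count table. RNA was sequenced from primary bone marrow-derived macrophages, which are grown in culture from marrow progenitors. There were 3 libraries labelled Tmem175flox/flox Lyz2-Cre+/- (genotype field Tmem175-/-, called knockout here) and 3 labelled WT, each from its own well. The labels name no stimulus and give no age of the mice.

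Cre recombinase in the knockout cells is carried at Lyz2, the lysozyme gene of myeloid cells, and the wild type label names neither Cre nor a floxed allele; there is no library with Cre alone or floxed alleles alone. An effect of Tmem175 loss therefore cannot be told apart from one of Cre, of the Lyz2 insertion or of strain background. TMEM175 is an ion channel of endosomes and lysosomes, the compartments in which the nucleic acid-sensing receptors meet their ligands. Since wells and not animals are named, the spread behind the p-values below is that of wells and may be technical.

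All Toll-like receptors share a horseshoe of leucine-rich repeats that binds the ligand and a cytosolic TIR domain that recruits adaptors. TLR2 pairs with TLR1 or TLR6 to bind bacterial lipopeptides, TLR4 with its partner MD-2 binds lipopolysaccharide, and TLR5 binds flagellin. In endosomes TLR3 senses double-stranded RNA, TLR7 and TLR8 sense RNA and its breakdown products, TLR9 senses unmethylated CpG DNA, and TLR13, which mice have and humans lack, senses bacterial ribosomal RNA. Endosomal receptors are brought from the endoplasmic reticulum to endosomes by the chaperone UNC93B1 and are trimmed in those acidic compartments by proteases.

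Before the levels, 1 limit of sequence on them can be read directly. Tlr1 (ENSMUSG00000044827, chromosome 5, 64924679 to 64933563) and Tlr6 (ENSMUSG00000051498, chromosome 5, 64952031 to 64960097) lie close together on the minus strand of GRCm38, and their coding exons hold an identical run of 229 bases. It is shown because a read that falls inside it does not tell which of these genes it came from. It lies at chr5:64925537-64925765 in Tlr1 and at chr5:64953828-64954056 in Tlr6, both on the minus strand, and is printed from the transcripts of GENCODE M21.

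Tlr1 and Tlr6: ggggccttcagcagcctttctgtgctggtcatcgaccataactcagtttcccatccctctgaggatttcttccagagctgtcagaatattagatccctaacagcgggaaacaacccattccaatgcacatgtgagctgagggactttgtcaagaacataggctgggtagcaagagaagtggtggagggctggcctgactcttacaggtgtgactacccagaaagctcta

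Of all windows of 100 bases in the longest coding transcript, 259 of 2926 in Tlr1 (8.85%) and 259 of 3578 in Tlr6 (7.24%) were identical between this pair. How the authors' counting treated such reads is not given in the sources used here, so the counts of Tlr1 and Tlr6 carry that uncertainty. Tlr3 held 18 such windows in common with Gm45542, an antisense gene that overlaps 381 of its exon bases and had a count of 0 in all 6 libraries. The other 7 receptors had no window in common with a transcript of another gene, and Tlr3 was the 1 receptor with an exon overlap.

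Promoter sequence was available from RefSeq (GRCm38.p6, 250 bases before to 50 after a start site) for 8 of the 10 receptors, at 10 start sites; Tlr4 and Tlr7 had no entry. The motifs were picked after these sequences had been read, as sites of factors of the macrophage lineage or of receptor signalling, and were sought on both strands. GAGGAA, the core bound by the macrophage lineage factor PU.1, was found at start sites of Tlr1, Tlr8, Tlr9 and Tlr13, and in 28.3% of all 32851 promoters of the same length. A palindrome bound by NF-kB, GGGAA joined to its reverse complement TTCCC, was found at Tlr2 and in 0.0396% of all promoters. Matches before the start site are shown with up to 20 flanking bases to each side, none of them past that site, as context for the receptors described below, with the motif in capitals and each sequence read along the gene's own strand.

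Tlr2, NF-kB, chr3:83841751-83841800, minus strand: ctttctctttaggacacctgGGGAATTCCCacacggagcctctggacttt
Tlr1, PU.1 core, chr5:64933559-64933601, minus strand: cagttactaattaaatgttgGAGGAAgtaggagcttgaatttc
Tlr8, PU.1 core reversed, chrX:167264381-167264426, minus strand: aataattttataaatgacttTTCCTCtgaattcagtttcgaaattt
Tlr9, PU.1 core, chr9:106222466-106222511, plus strand: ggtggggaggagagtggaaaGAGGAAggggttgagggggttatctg
Tlr13, PU.1 core, chrX:106143172-106143217, plus strand: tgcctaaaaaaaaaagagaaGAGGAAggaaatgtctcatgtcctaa

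The match in Tlr2 began 172 bases before the RefSeq start site, and those in Tlr1, Tlr8, Tlr9 and Tlr13 began 23, 77, 112 and 83 bases before theirs. The GENCODE M21 genes Tlr1, Tlr2 and Tlr13 start at 64933563, 83841767 and 106143204, inside the windows shown, so distances to those starts differ. Tlr9 held a further reversed PU.1 core within the 50 bases after its start site. Of the other motifs, a spaced NF-kB form (GGGNN followed by TTTCC, in 1.63% of all promoters) was found at Tlr3, the interferon response element (GAAANN followed by GAAA, 3.44%) at Tlr6, with 2 matches that overlap each other, and TGANTCA (AP-1, 7.81%) at Tlr9. TTGCNNAA (C/EBP, 10.8%) was found at Tlr3, Tlr6, Tlr8 and Tlr13. No match of one motif overlapped a match of another. These matches describe letters in a window and no binding was measured.

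The libraries held 24179548 to 31542741 counts each, with 1.14% to 1.22% of them in mitochondrially encoded genes. Tmem175 separated the genotypes, at 12.1 to 14.3 CPM (counts scaled to a common library size, with TMM factors) in knockout, against 32.8 to 33.4 CPM in wild type libraries, though 35.3% of its exon bases overlap Dgkq on the opposite strand. Lyz2, the locus that carries Cre, fell from 45178 to 24326 CPM on average (log2 fold change -0.89, adjusted p = 0.00415, edgeR). Defining macrophage markers were abundant in every library, with Adgre1, Cd68 and Csf1r at 1280 CPM or above, whereas the T and NK cell markers Cd3e, Cd3g, Ncr1 and Klrb1c summed to at most 1.55 CPM. Summed markers of plasmacytoid dendritic cells were 6.79 to 12.5 CPM in knockout, against 11.5 to 21.2 CPM in wild type libraries, and those of neutrophils 692 to 741 and 400 to 592 CPM. For the same groups, markers of mast cells and basophils summed to 5.14 to 11.2 and 11.6 to 18.8 CPM, those of conventional dendritic cells to 3.87 to 5.33 and 4.53 to 7.15 CPM, and 4 B cell markers (Cd79a, Cd79b, Ms4a1 and Pax5) to 9.62 to 13.1 and 13.1 to 16.1 CPM. Only the neutrophil and the mast cell sums did not overlap between genotypes. In this bulk RNA, fewer cells of a type and less RNA per cell cannot be told apart.

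Levels of the receptors were compared with each other in CPM per kilobase of annotated exon (RPKM). They spanned from 96.3 RPKM for Tlr2 to 0.278 RPKM for Tlr5 on average over the 6 libraries. Tlr2 stood first, followed by the RNA sensors Tlr7 at 80.9 RPKM, Tlr13 at 75.9 RPKM and Tlr8 at 62.5 RPKM, and by the DNA sensor Tlr9 at 50.9 RPKM. Tlr1, at 40.1 RPKM, and Tlr4, the lipopolysaccharide receptor, at 16.5 RPKM, came next. Tlr6 at 9.61 RPKM and Tlr3, the double-stranded RNA sensor, at 4.04 RPKM were lower still. Among the 13588 genes tested, Tlr2 lay at the 96.6th percentile of level per length, Tlr4 at the 80.4th, Tlr3 at the 49.3rd and Tlr5 at the 9.57th.

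Most steps in this order were wider than the spread between libraries. Tlr2 (80.6 to 115 RPKM) and Tlr7 (73.6 to 86.3 RPKM) overlapped in range, yet Tlr2 was the higher of the pair in 6 of 6 libraries. Tlr7 and Tlr13 (69.8 to 82.8 RPKM) did not differ beyond their spread, with Tlr7 higher in 4 of 6 libraries. From Tlr13 down, the ranges of neighbours did not overlap. The order was the same with the longest transcript as the length of each gene, while without any length correction Tlr7 (330 CPM) and Tlr13 (327 CPM) came before Tlr2 (290.2 CPM).

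**Figure D1:**
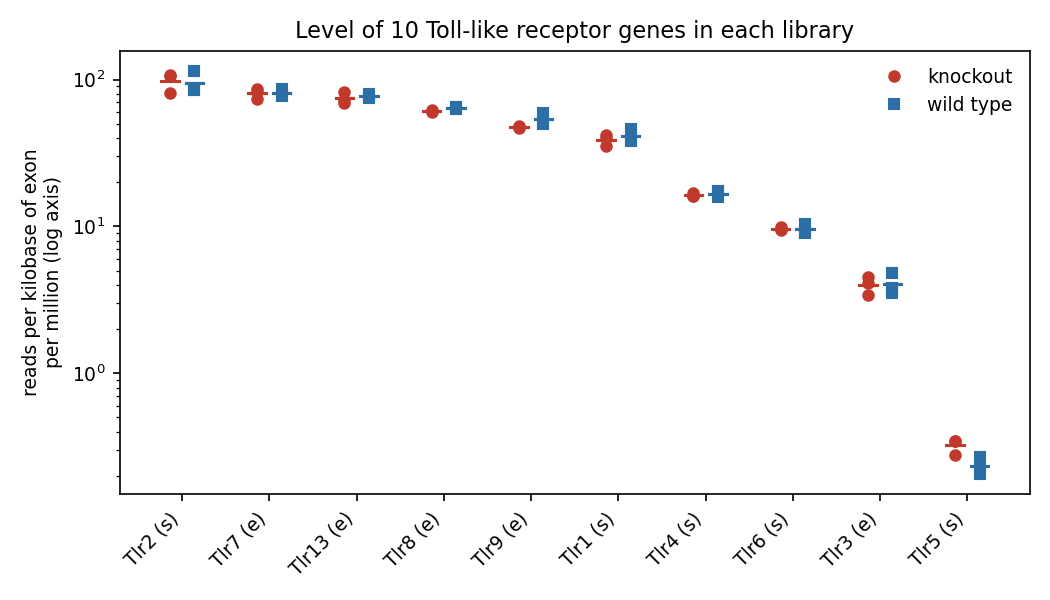
Level of each receptor (RPKM, log axis) in the 3 knockout and 3 wild type libraries, with group means as bars; s marks surface and e endosomal receptors. Tlr2 stood highest at 96.3 RPKM and Tlr5 lowest at 0.278 RPKM, and in each receptor but Tlr5, Tlr8 and Tlr9 the knockout and wild type points overlapped.

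Endosomal receptors made up most of the summed receptor level in every library. Their 5 genes summed to 269, 265 and 271 RPKM in knockout replicates 1 to 3 and to 274, 276 and 290.3 RPKM in wild type replicates 1 to 3. The 5 surface genes summed to 149, 167 and 175 RPKM and to 150, 156 and 181 RPKM in the same order. The endosomal share was thus 62.2% ± 1.94 in knockout, against 63.4% ± 1.60 in wild type libraries (SD, n = 3 each), and the groups overlapped, at 60.8% to 64.4% and 61.6% to 64.7%. Without Tlr13 the endosomal share was 54.2% in knockout, against 55.7% in wild type libraries. Leaving out an endosomal gene lowers this share by construction, and this was done for Tlr13 alone, not for Tlr7, whose mean level was higher. Within the surface class Tlr2 alone held 54.1% to 63.3% of the sum.

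**Figure D2:**
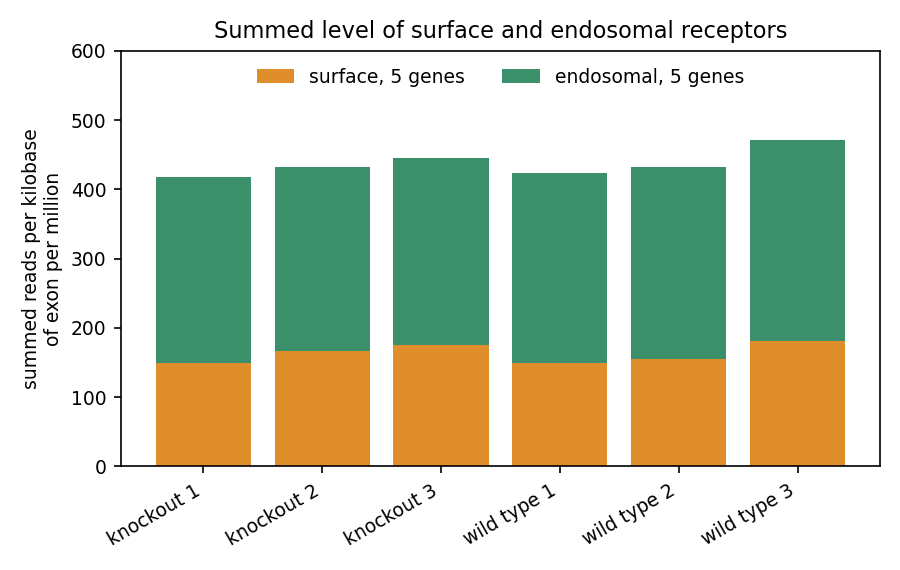
Summed level (RPKM) of the 5 surface and 5 endosomal receptors in each library, stacked. Endosomal sums lay between 265 and 290.3 RPKM, while surface sums ran from 149 RPKM in knockout replicate 1 to 181 RPKM in wild type replicate 3.

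Receptors were also set against their partner genes, as ratios of level within each library. Tlr2 exceeded Tlr1 by 1.83 to 3.01 times and Tlr6 by 8.41 to 11.1 times over the 6 libraries, and Tlr1 exceeded Tlr6 by 3.69 to 4.95 times, the last with the shared stretch above as a caveat. Tlr4 and Ly96, which encodes MD-2, were near parity, with a ratio of 1.13 ± 0.0431 in knockout, against 1.24 ± 0.131 in wild type libraries (SD, n = 3 each). Cd14, the co-receptor that hands lipopolysaccharide to this complex, exceeded Tlr4 by 16.1 to 21.7 times. Both ratios with Tlr4 depend on the length used. They rest on its 5556 bases of annotated exon and were not taken with its longest transcript of 4077 bases. Unc93b1 exceeded the summed endosomal receptors by 1.62 ± 0.0258 times in knockout, against 1.58 ± 0.0250 times in wild type libraries (SD, n = 3 each).

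The main question of the design was whether expression differed between knockout and wild type macrophages. None of the 10 receptors was called different at an adjusted p under 0.05 in edgeR's quasi-likelihood test, where 0.103% of the 13588 genes tested were called (12 genes, 0.0883%, lower and 2 genes, 0.0147%, higher in knockout); all 10 receptors passed the filter on low counts. DESeq2's Wald test and limma-voom also called 0 of the 10. At an unadjusted p under 0.05 there was 1 receptor, Tlr9, against 5.44% of all genes in either direction and 3.04% lower in knockout, as Tlr9 was. The median log2 fold change of the 10 was -0.022, beside -0.00090 over all genes tested. Knockout and wild type libraries did not overlap for 3 of the 10, Tlr8 and Tlr9 below and Tlr5 above, where 10.8% of all genes did not overlap.

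Surface receptors showed no shared direction. Tlr2, the lipopeptide receptor chain common to both heterodimers, was at 243, 319 and 325 CPM in knockout replicates 1 to 3 and at 256, 254 and 345 CPM in wild type replicates 1 to 3. Each genotype thus held both low and high libraries, and the log2 fold change was 0.05 (95% interval -0.25 to 0.36, adjusted p = 0.979, edgeR). Tlr4 was at 89.3, 90.0 and 93.6 CPM in knockout, against 93.6, 87.7 and 97.2 CPM in wild type libraries. Its values were tight and overlapped, with a log2 fold change of -0.030 (95% interval -0.14 to 0.084, adjusted p = 0.979, edgeR), an interval of 0.906-fold to 1.06-fold.

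Tlr1, the partner for triacylated lipopeptides, was at 140, 118 and 134 CPM in knockout, against 130, 154 and 128 CPM in wild type libraries. Wild type replicate 2 was the highest and knockout replicate 2 the lowest, and the log2 fold change was -0.073 (95% interval -0.26 to 0.12, adjusted p = 0.973, edgeR). Tlr6, the partner for diacylated lipopeptides, was at 35.7, 35.5 and 36.8 CPM in knockout, against 33.5, 34.7 and 38.6 CPM in wild type libraries. The knockout libraries lay inside the wild type range, with a log2 fold change of 0.016 (95% interval -0.12 to 0.15, adjusted p = 0.987, edgeR).

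Tlr5, the flagellin receptor, was close to the limit of detection, with 52, 50 and 35 counts in the knockout libraries and 31, 24 and 27 counts in the wild type ones. In CPM it stood at 1.65, 1.66 and 1.33 against 1.29, 0.986 and 1.07, so every knockout library was above every wild type library, as for 5.73% of all genes. Its log2 fold change of 0.47 was the largest in size among the 10 and also the least precise (95% interval -0.050 to 1.00, adjusted p = 0.932, edgeR). The summed markers of neutrophils, a cell type that also carries this receptor, were likewise higher in every knockout library, as given above, with 6 of 8 markers at a positive and 2 at a negative log2 fold change and none at 0 counts. Knockout lay above wild type without overlap for 2 of these markers, S100a8 and S100a9, the highest of the list in CPM. It lay below for 1, Mpo, as for 5.06% of all genes, and the other markers overlapped. The part of neutrophils in the Tlr5 values was not tested.

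All 5 endosomal receptors lay below 0 (median log2 fold change -0.038). Without knockout replicate 1, or without wild type replicate 3, 2 of the 5 were positive, so no common direction is given. Under library totals as the only scaling Tlr3, Tlr7 and Tlr13 were positive. That scaling moved the median of all genes to 0.042, so these signs cannot decide on a common direction. Tlr9, the CpG DNA sensor, was at 164, 169 and 166 CPM in knockout, against 174, 182 and 207 CPM in wild type libraries. The 3 knockout libraries lay together below all 3 wild type libraries, among which replicate 3 stood highest. Its log2 fold change was -0.17 (SE 0.063, 95% interval -0.31 to -0.032, unadjusted p = 0.0213, adjusted p = 0.881, edgeR), and Tlr9 did not pass. Without wild type replicate 3 the log2 fold change was -0.098, and over all 14 alternatives its adjusted p ran from 0.398 to 1.00. Tlr9 is also a gene of plasmacytoid dendritic cells and B cells, whose summed markers, given above, overlapped between groups. All 4 of the tested plasmacytoid markers (Siglech, Ccr9, Cox6a2 and Spib) and all 4 B cell markers had a negative log2 fold change, none of them called. These ran from -0.92 (Ccr9) to -0.41 (Cox6a2) and from -1.36 (Ms4a1) to -0.17 (Cd79b). An unadjusted p under 0.05 (edgeR) was found for 3 of the 4 plasmacytoid and 3 of the 4 B cell markers. Of all genes, 3.04% were lower in knockout at that threshold. Knockout lay below wild type without overlap for Ms4a1 and Pax5, as for 5.06% of all genes. Among these markers only the untested Klk1 reached a count of 0 in a library. In wild type replicate 3, where Tlr9 was highest, the plasmacytoid markers were at 11.5 CPM, the lowest of the wild type libraries; the part of such cells in the Tlr9 values was not tested.

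Tlr8 was the steadiest receptor, at 222, 214 and 218 CPM in knockout, against 230, 227 and 234 CPM in wild type libraries. The spread within groups was 1.67% of the mean, lower than in all but 1.69% of genes tested, and the groups did not overlap. The difference was small, with a log2 fold change of -0.077 (95% interval -0.17 to 0.016, adjusted p = 0.947, edgeR), or 0.888-fold to 1.01-fold, and with library totals as the only scaling it was -0.034. Groups with knockout below wild type, as for Tlr8 and Tlr9, were found for 5.06% of all genes.

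Tlr7, which lies beside Tlr8 on the X chromosome (Tlr8 at 167242696 to 167264329 and Tlr7 at 167304929 to 167330558), was at 300.5, 336 and 351 CPM in knockout, against 315, 326 and 352 CPM in wild type libraries. The ranges overlapped nearly whole, with a log2 fold change of -0.0075 (95% interval -0.16 to 0.14, adjusted p = 0.994, edgeR). Tlr13 was at 356, 300.3 and 310.1 CPM in knockout, against 341, 331 and 321 CPM in wild type libraries. Knockout replicate 1 was the highest and knockout replicate 2 the lowest of the 6, and the log2 fold change was -0.038 (95% interval -0.19 to 0.11, adjusted p = 0.979, edgeR). Tlr3, with the lowest level of the endosomal class, was at 17.9, 23.5 and 21.5 CPM in knockout, against 18.3, 19.9 and 25.1 CPM in wild type libraries. Its groups overlapped, with a log2 fold change of -0.014 (95% interval -0.30 to 0.28, adjusted p = 0.994, edgeR).

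**Figure D3:**
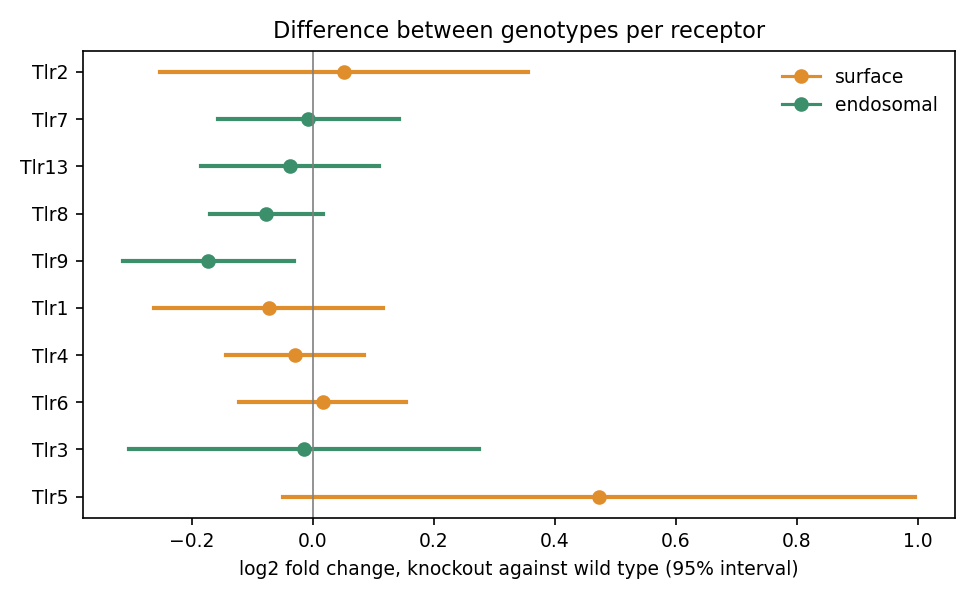
Log2 fold change of each receptor, knockout against wild type, with its 95% interval from edgeR's quasi-likelihood fit; surface receptors in orange and endosomal receptors in green. Only the interval of Tlr9 lies off 0, and its adjusted p was 0.881; that of Tlr5, the receptor with the fewest counts, is the widest.

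The other mouse receptors, Tlr11 and Tlr12, which recognise profilin of protozoa and were not counted in either class here, were barely detected. Tlr11 had counts of 10 to 25 and Tlr12 of 19 to 43 in a library. Tlr12 had a lower CPM in each knockout than in each wild type library, as for 5.06% of all genes. It was at 0.920, 0.633 and 1.14 CPM against 1.34, 1.77 and 1.15 CPM, with a log2 fold change of -0.66 (95% interval -1.33 to -0.0021, adjusted p = 0.917, edgeR).

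Single libraries also stood in a common order that cut across genotype. The first principal component of all tested genes held 29.3% of the variance and was cut by rank into 3 and 3 libraries. Wild type replicates 1 and 2 (-19.9 and -17.5) and knockout replicate 1 (-2.62) made one side. Wild type replicate 3 (9.41) and knockout replicates 3 and 2 (13.2 and 17.4) made the other. Knockout replicate 1 thus lay in between, and the sides are not clear clusters. On the second component (20.6%) all knockout libraries (-15.1 to -3.66) lay below all wild type ones (-0.911 to 23.5). The sides of the first component come from the expression values and are not groups of the study. Since that component is built from all genes, many genes separate along it: 21.7% of the 13588 did not overlap between its sides. Among the 10 receptors 4 did not overlap. Tlr2 was at 243 to 256 CPM on the first side and at 319 to 345 CPM on the other. Tlr3 was at 17.9 to 19.9 CPM and 21.5 to 25.1 CPM in the same libraries, and Tlr7 at 300.5 to 326 CPM and 336 to 352 CPM. Tlr13 ran the other way, at 331 to 356 CPM and 300.3 to 321 CPM.

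Of the 20 tested genes that receptor signalling induces, 8 were higher and 3 lower without overlap in knockout replicates 2 and 3 and wild type replicate 3, and 9 overlapped. The 8 and 3 were 40% and 15% of the list, where 10.8% and 11% of all genes tested were higher and lower there. The list also varied more, with a median spread within groups of 18.7% of the mean, against 7.57% over all genes tested. Genes of wide spread weigh more in the component, and the part of that spread in these shares was not tested. The genes named next were singled out after their values had been seen. Saa3, an acute phase protein, was at 128 to 132 CPM in the libraries where Tlr2 was low and at 275 to 407 CPM in the others. Acod1, which makes itaconate, was at 182 to 248 CPM and 292 to 358 CPM, and Cxcl10, an interferon-induced chemokine, at 44.0 to 70.9 CPM and 77.0 to 97.0 CPM. The other 5 of the 8 were Tnf, Cxcl2, Ccl3, Sod2 and Marcksl1. The 3 lower genes were interleukins of low level: Il1a at 4.47 to 5.96 CPM and 1.96 to 3.54 CPM, Il1b at 4.30 to 5.42 CPM and 3.27 to 4.25 CPM, and Il12b at 2.88 to 3.12 CPM and 1.63 to 2.27 CPM. The labels give no batch for this order, and since it was read from the same libraries no test was made along it.

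**Figure D4:**
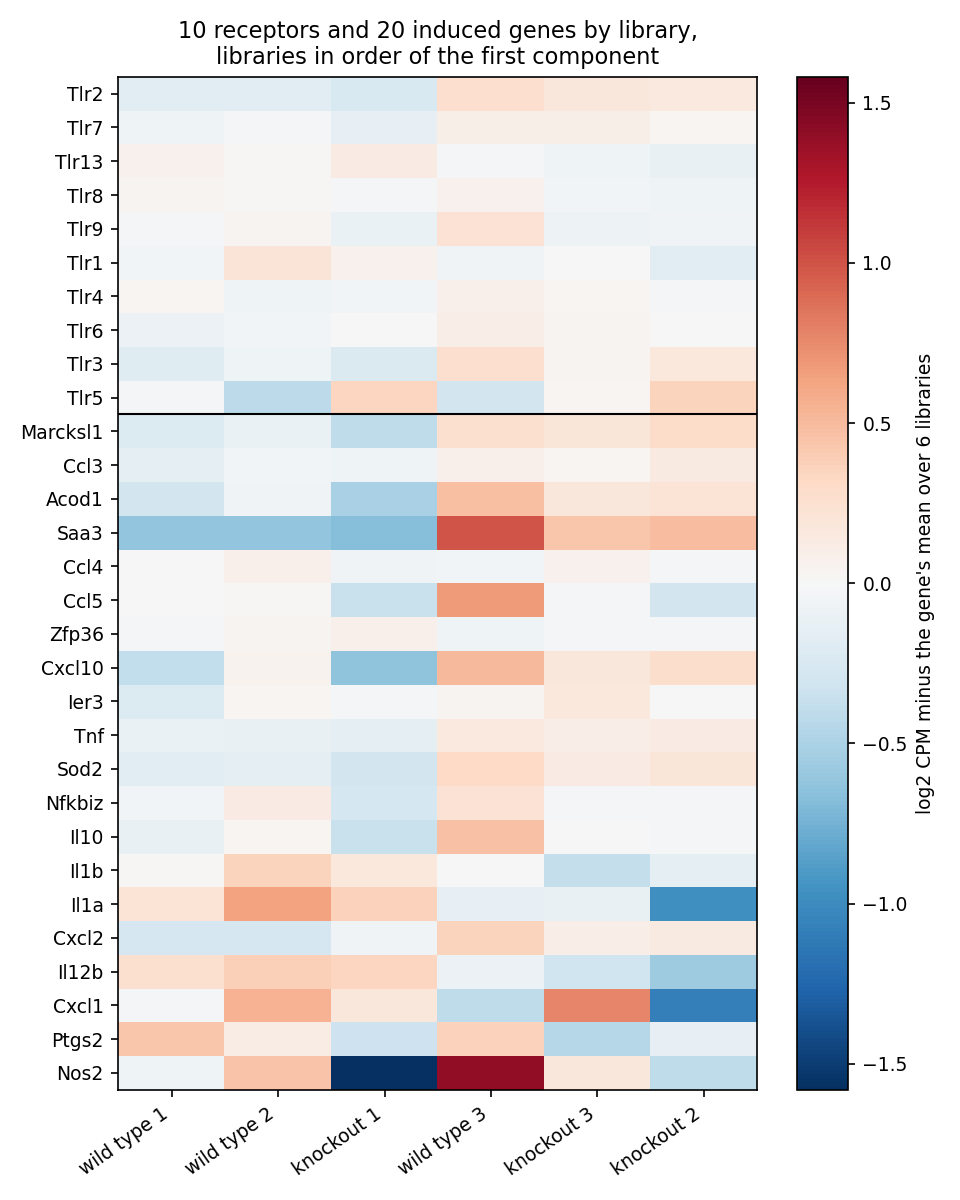
Log2 CPM minus the gene's mean over the 6 libraries (color) for the 10 receptors and the 20 tested induced genes, each block by falling RPKM, with libraries ordered along the first principal component. Tlr2, Tlr3, Tlr7 and 8 of the induced genes are higher in wild type replicate 3 and knockout replicates 3 and 2, whereas Tlr13, Il1a, Il1b and Il12b are lower there.

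Genes of the wider pathway were counted from 8 lists of 91 genes, of which 88 passed the filter. None of the 88 was called by edgeR, DESeq2 or limma-voom. An unadjusted p under 0.05 (edgeR) was found for 7, all lower in knockout. These were 7.95%, beside 5.44% of all genes in either direction and 3.04% lower in knockout. The count in either direction hung on single libraries. It was 2 of 89 without knockout replicate 2, 2 of 89 without wild type replicate 2 and 13 of 89 without knockout replicate 1. Over all genes those fits gave 564 of 13871, 554 of 13836 and 1202 of 13912. Among the 7, Nos2 had 6 to 38 and Ptgs2 16 to 27 counts a library. The median log2 fold change of the 88 was -0.020. Knockout lay below wild type without overlap for 7 of the 88 and above for 2, where 10.8% of all genes did not overlap. Without any filter on low counts, where 0.582% of 25959 genes were called, 2 of the 91 were, Ccl5 and Slc15a3.

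Among the 5 co-receptor and ligand transfer genes, 2 had a positive and 3 a negative log2 fold change (median -0.071). Cd180, which with its partner Ly86 forms a receptor complex related to TLR4, was at 380 ± 20.5 CPM in knockout, against 411 ± 4.22 CPM in wild type libraries (SD, n = 3 each; log2 fold change -0.12, edgeR adjusted p = 0.908, SE 0.050). Ly86 had a log2 fold change of -0.071 (SE 0.052). Cd14, the list's highest gene per length at 312 RPKM, had one of 0.080 (SE 0.11), and Cd36, a scavenger receptor that presents lipids to TLR2, one of -0.18 (SE 0.18), which ran from -0.41 without knockout replicate 1 to -0.016 without knockout replicate 2.

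The 9 genes of folding, traffic and the endosomal scaffold had a median of -0.027, with 3 positive and 6 negative. Unc93b1, the chaperone of the endosomal receptors, was at 1342, 1285 and 1319 CPM in knockout, against 1320, 1340 and 1368 CPM in wild type libraries. The groups overlapped, with a log2 fold change of -0.030 (edgeR adjusted p = 0.979, SE 0.044). Hsp90b1, the chaperone gp96 with which most receptors fold, had a log2 fold change of 0.051 (SE 0.043).

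The peptide and histidine transporters of endolysosomes were on opposite sides of 0. Slc15a3 was at 353, 306 and 310 CPM in knockout, against 378, 405 and 355 CPM in wild type libraries. Its groups did not overlap, the nearest libraries being knockout replicate 1 and wild type replicate 3, and the log2 fold change was -0.23 (edgeR adjusted p = 0.734, SE 0.069). Slc15a4, which holds the scaffold for IRF5 signalling from TLR7 and TLR9, was at 116 ± 6.05 CPM in knockout, against 109 ± 2.89 CPM in wild type libraries (SD, n = 3 each), with a log2 fold change of 0.085 (edgeR adjusted p = 0.961, SE 0.050).

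The 10 genes of endosomal proteases and nucleases had a median of -0.0097, with 5 on either side of 0. Cathepsins Ctss and Ctsb, which trim endosomal receptors, were the highest of the list per length, at 4852 and 3000.2 RPKM. Their log2 fold changes were -0.076 (SE 0.080) and -0.023 (SE 0.067). Rnaset2a and Rnaset2b, copies of the nuclease gene that frees ligands for TLR8, had log2 fold changes of 0.34 (SE 0.25) and 0.35 (SE 0.22) at 29 to 87 counts a library. These near-identical genes may exchange reads, so their values are uncertain; leaving out 1 library gave 0.096 (wild type replicate 1) to 0.57 (wild type replicate 3) for Rnaset2a and as little as 0.16 (wild type replicate 2) for Rnaset2b.

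Among the 5 tested TIR adaptor genes, 4 had a positive and 1 a negative log2 fold change (median 0.0048). Myd88, the adaptor of every receptor here but TLR3, was at 85.5, 99.2 and 105 CPM in knockout, against 89.0, 92.8 and 107 CPM in wild type libraries. Replicate 1 was the lowest of each genotype, and the log2 fold change was 0.0048 (edgeR adjusted p = 0.997, SE 0.088). Ticam1, the adaptor TRIF of TLR3 and TLR4, had a log2 fold change of 0.037 (SE 0.062). Pik3ap1, the adaptor BCAP that links receptors to phosphoinositide 3-kinase, had one of -0.070 (SE 0.051).

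Kinases and ubiquitin ligases gave 4 positive and 15 negative log2 fold changes of 19 (median -0.021). Under library totals, which moved the median of all genes to 0.042, 11 were positive and 8 negative. Leaving out 1 library gave 3 positive (without wild type replicate 1) to 8 positive (without knockout replicate 1, or without wild type replicate 2). Peli1, a ubiquitin ligase of the IRAK complex, was at 79.9 ± 2.98 CPM in knockout, against 89.8 ± 5.78 CPM in wild type libraries (SD, n = 3 each; log2 fold change -0.17, edgeR adjusted p = 0.863, SE 0.057), and the groups overlapped. Irak2 had a log2 fold change of -0.064 (SE 0.043), the kinase gene Ikbke one of -0.026 (SE 0.052) and Tab2, a TAK1 binding protein, one of 0.038 (SE 0.041). All 10 transcription factor genes had a negative log2 fold change (median -0.043), and 0 passed. Under library totals, with that same move of the median, 5 were positive. Leaving out 1 library gave 0 positive (without wild type replicate 1) to 3 positive (without wild type replicate 3), so no common direction is given. Irf1 was at 98.4 ± 7.19 CPM in knockout, against 111 ± 14.8 CPM in wild type libraries (SD, n = 3 each; log2 fold change -0.18, edgeR adjusted p = 0.939, SE 0.091), and the log2 fold change was -0.072 without wild type replicate 3. Irf5 and Irf7, the highest of these 10 genes per length, had log2 fold changes of -0.017 (SE 0.049) and -0.13 (SE 0.15). Irf8, with the smallest p of the list after Irf1, had one of -0.083 (SE 0.050).

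Inhibitor genes gave 6 positive and 4 negative log2 fold changes (median 0.0060). Nfkbia, which encodes the NF-kB inhibitor IkBa, had one of 0.069 (SE 0.084), and Trafd1 one of -0.070 (SE 0.060). Socs1, a cytokine signalling suppressor, was at 5.80 ± 0.612 CPM in knockout, against 4.63 ± 0.879 CPM in wild type libraries (SD, n = 3 each; log2 fold change 0.32, edgeR adjusted p = 0.939, SE 0.16). Sigirr, a negative regulator in the same receptor superfamily, was near the detection limit with 41 to 79 counts a library and a log2 fold change of 0.39 (SE 0.23).

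Induced targets gave 9 positive and 11 negative log2 fold changes of 20 tested (median -0.049). Ccl5, a chemokine, was at 37.4, 38.9 and 46.7 CPM in knockout, against 47.4, 48.2 and 76.5 CPM in wild type libraries. The groups did not overlap, but wild type replicate 3 stood far above the rest, and the log2 fold change of -0.49 (edgeR adjusted p = 0.881, SE 0.17) was -0.22 without that library. Nfkbiz, a nuclear cofactor of NF-kB, was at 67.8 ± 6.48 CPM in knockout, against 78.8 ± 7.39 CPM in wild type libraries (SD, n = 3 each; log2 fold change -0.22, edgeR adjusted p = 0.903, SE 0.084). Ccl3 and Marcksl1 had log2 fold changes of 0.077 (SE 0.071) and 0.067 (SE 0.17). The acute cytokine genes Il6 and Ifnb1 were nearly silent, with 0 to 2 and 0 to 6 counts a library, and did not pass the filter.

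**Figure D5:**
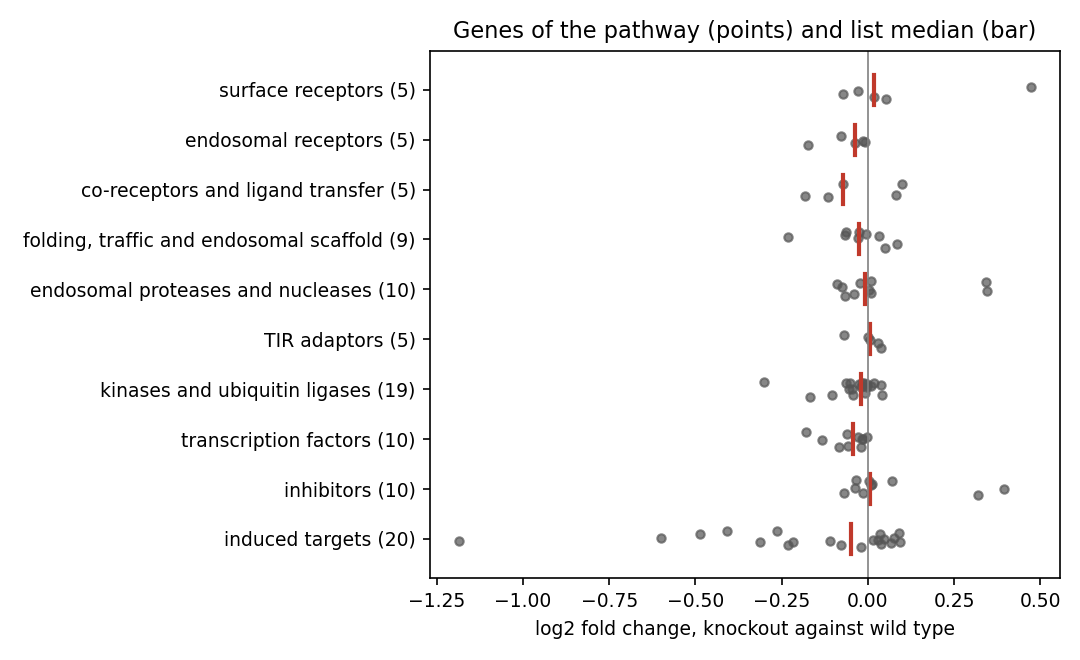
Log2 fold change, knockout against wild type, of each tested gene in the 2 receptor classes and the 8 pathway lists (points, number tested in brackets), with list medians as red bars. List medians lie between -0.071 and 0.016, and the points farthest from 0 are Nos2 at -1.19, Ptgs2 at -0.60 and Ccl5 at -0.49. Nos2 had 6 to 38, Ptgs2 16 to 27 and Ccl5 1136 to 1923 counts a library.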

How the data were processed

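RNA libraries were made from TRIzol lysates with a SMARTer mRNA kit, per the labels' protocols. The authors deposited raw counts per Ensembl gene, with HISAT2, featureCounts and GRCm38 named in the submitters' processing notes (per the labels). Tool versions, annotation release, strand setting and treatment of reads with several matches are not given in the sources used. GENCODE M21 gave symbols, positions and exon lengths for 55240 of the 55421 IDs; 181 did not match. In edgeR 4.0.16 (R 4.3.3), low genes were removed with filterByExpr, libraries were scaled by TMM, and the 6 libraries were compared by genotype with its two-sided quasi-likelihood test, Benjamini-Hochberg adjusted over 13588 genes, at a threshold of 0.05. Alternatives included DESeq2 1.42.0, limma-voom (limma 3.58.1), other scalings and filters, a replicate block and leaving out each library. RPKM used the union of annotated exons. The fit was tested on simulated data. The members and lists were chosen with earlier results of these data known. Named pathway genes were those called, plus the 2 with the smallest p and the 2 with the highest RPKM in each list. Intervals cover the spread between libraries, and totals per library are given in the text. Genes outside this rule named with values are Tmem175 and Lyz2 (label checks), cell type markers, Tlr11, Tlr12, Ly96 (receptor partner), Il6 and Ifnb1 (not tested), and Saa3, Acod1, Cxcl10, Il1a, Il1b, Il12b, Nos2 and Ptgs2, chosen after their values were seen. The values of 1 cell type marker are not reported here.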

Additional observations from a re-analysis of the deposited data

How the results depend on the processing

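None of the receptors tested passed under any of the 14 alternatives; Tlr5 was not tested among genes averaging 10 CPM or more. The count over all genes, 14 by edgeR, was 40 by DESeq2's Wald test (10 higher, 30 lower), 151 without a filter on low counts (39 higher, 112 lower), 5 where only genes averaging 10 CPM or more were tested (0 higher, 5 lower), and 4 to 12 when 1 library was left out (0 to 2 higher, 4 to 10 lower); fewer or more genes were tested under the filters, and other causes were not tested. Of the pathway genes 2 were called without a filter. Endosomal shares were 65.6% (knockout) and 66.6% (wild type) without length correction and 54.2% and 55.7% without Tlr13.

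Same-numbered libraries did not pair, with correlations of 0.057, -0.12 and 0.039, and not every library correlated best with its own number. With the replicate block 17 genes were called (3 higher, 14 lower), 0 of them receptors or pathway genes.

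Of 139 receptor values under the alternatives 121 kept their direction and side of the threshold and 18, in 7 genes, reversed; of 484 values of other named genes 463 and 19 did so. With library totals, which moved the median of all genes to 0.042, log2 fold changes were 0.032 for Tlr3, 0.014 for Tlr4, 0.037 for Tlr7, 0.0035 for Tlr13, 0.018 for Ctsb, 0.018 for Ikbke, 0.025 for Irf5 and 0.013 for Unc93b1. Tlr7 was at 0.0017 without a filter and Myd88 at -0.0022 with upper-quartile scaling. Leaving out 1 library gave -0.13 to 0.018 for Tlr1, -0.024 to 0.21 for Tlr2, -0.11 to 0.13 for Tlr3, -0.069 to 0.0051 for Tlr4, -0.025 to 0.079 for Tlr6, -0.055 to 0.057 for Tlr7, -0.11 to 0.013 for Tlr13 and -0.12 to 0.31 for Tlr11. It gave -0.088 to 0.028 for Ctsb, -0.17 to 0.0056 for Ctss, -0.063 to 0.0069 for Ikbke, -0.048 to 0.020 for Irf5, -0.28 to 0.033 for Irf7, -0.060 to 0.25 for Marcksl1 and -0.060 to 0.089 for Myd88; the cause of these reversals was not tested. Of the 29 named genes that never reversed, 19 moved by over 1.5 times when 1 library was left out and 14 with library totals. Depth limits Tlr5, Tlr11 and Tlr12, at 10 to 52 counts a library.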
